A study of Caenorhabditis elegans with 3 samples.

Results

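EGL-27 peaks beside tRNA genes were taken from a chromatin immunoprecipitation sequencing (ChIP-seq) data set of Caenorhabditis elegans larvae. A peak belonged here when its summit, the position of highest signal that the list names, lay inside a nuclear tRNA gene or within 500 bp of one. The list of peaks called on the pooled replicates held 23218 peaks, and 339 of them met this rule. The search covered 612 nuclear tRNA genes of the Ensembl annotation of build WBcel235 (ce11), of which 349 had such a peak, while the 22 mitochondrial tRNA genes were left out. The rule used position alone, so the height of the peaks, their presence in the replicates, their chromosome and their sequence were not part of it.

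All samples formed 1 group of 3 biological replicates. The worms were whole L1 larvae, the first larval stage, with both sexes mixed, of strain OP177 (unc-119(ed3) III; wgIs177). The transgene wgIs177 carries egl-27, and a note on replicate 3 gives its tag as GFP-FLAG at the C-terminus. The antibody field of the labels names egl-27, while their description names the GFP-tagged protein as the target, so tagged and native EGL-27 cannot be told apart as the source of a peak. All samples therefore carried both the unc-119 mutation and the tagged copy, and no untagged sample was used here, so signal that depends on EGL-27 and signal that any immunoprecipitation would give at tRNA genes cannot be told apart. Because whole larvae were used, fewer cells with EGL-27 at a site and less EGL-27 per cell cannot be told apart either.

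The protein EGL-27 belongs to the MTA family, whose members are subunits of nucleosome remodelling and deacetylase complexes. Transfer RNA genes are short and are transcribed by RNA polymerase III. Their promoter lies inside the gene: the A box and the B box are bound by the factor TFIIIC, which places TFIIIB just upstream of the start, and transcription ends at a run of T on the coding strand. The nematode carries most of its tRNA genes in several identical copies, and many of them lie on the X chromosome or in introns of protein-coding genes.

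The sequences below show the tRNA genes nearest to 6 of the highest-signal peaks. Not all of the summits lie in the printed stretch. They were taken in order of signal, except that C37A2.t1, whose signal of 51.4 stands between the last 2, is not shown. Each runs 5′ to 3′ on the strand of the tRNA gene, from 60 bases before the gene to 20 bases after it, as read from the RefSeq genome of build WBcel235. Capitals mark the A box in the form TGGNNNA and the B box in the form GTTCNANNC, and both forms were searched on the strand of the tRNA gene only.
C18A11.t2 (tRNA-Arg, chrX:8036665-8036817, minus strand): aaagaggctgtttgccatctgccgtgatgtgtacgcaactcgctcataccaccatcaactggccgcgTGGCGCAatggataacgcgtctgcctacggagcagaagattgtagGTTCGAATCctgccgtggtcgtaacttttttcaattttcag
R04A9.t1 (tRNA-Gln, chrX:410331-410482, plus strand): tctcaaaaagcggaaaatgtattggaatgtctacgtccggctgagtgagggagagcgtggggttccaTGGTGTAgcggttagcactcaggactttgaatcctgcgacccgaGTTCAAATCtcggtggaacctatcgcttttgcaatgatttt
M02F4.t1 (tRNA-Gly, chrX:3036104-3036255, plus strand): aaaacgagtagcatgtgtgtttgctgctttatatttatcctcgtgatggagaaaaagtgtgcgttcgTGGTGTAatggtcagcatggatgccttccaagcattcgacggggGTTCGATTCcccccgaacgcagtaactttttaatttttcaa
F41D9.t3 (tRNA-Asn, chrX:8404439-8404591, plus strand): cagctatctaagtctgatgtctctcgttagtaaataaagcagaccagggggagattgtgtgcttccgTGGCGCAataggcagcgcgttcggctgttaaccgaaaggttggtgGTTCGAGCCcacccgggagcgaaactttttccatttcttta
C04A2.t1 (tRNA-Leu, chrII:6853144-6853305, plus strand): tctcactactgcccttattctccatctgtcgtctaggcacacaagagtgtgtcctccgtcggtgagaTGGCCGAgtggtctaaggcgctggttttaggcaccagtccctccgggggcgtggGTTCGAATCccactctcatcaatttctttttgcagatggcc
C28G1.t1 (tRNA-Glu, chrX:8836053-8836204, plus strand): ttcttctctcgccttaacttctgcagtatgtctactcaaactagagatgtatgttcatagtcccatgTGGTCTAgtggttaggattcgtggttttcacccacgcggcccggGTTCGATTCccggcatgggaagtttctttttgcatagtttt
In all 6 genes the A box match began at base 8 of the gene. The B box match began at base 53 in C18A11.t2 and F41D9.t3, at base 62 in the longer leucine gene C04A2.t1 and at base 52 in the other 3. The first TTTT began 5 or 6 bases after the end of each gene. The EGL-27 summit lay 110 bp upstream of R04A9.t1, 39 bp upstream of M02F4.t1, 62 bp upstream of F41D9.t3 and 74 bp upstream of C28G1.t1, and of these only that of M02F4.t1 falls in the printed stretch. In C04A2.t1 it lay inside the gene, 38 bases from its first base and between the A and B boxes. At C18A11.t2 the summit was 270 bp beyond the 3′ end and is not in the printed stretch, and the peak did not overlap the gene. No gene in this set was unique in the genome: their sequences occurred 3 times (C04A2.t1) to 29 times (M02F4.t1).

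EGL-27 peaks were denser around tRNA genes than over the nuclear genome. The windows around the 612 genes made up 0.5705% of nuclear sequence and held 339 of 23217 nuclear peaks (1.46%), a 2.56-fold higher share. The same ratio was 1.88 for snRNA genes (59 peaks beside 129 genes), 2.32 for snoRNA genes (202 beside 346) and 1.68 for microRNA genes (98 beside 261). No pooled summit lay within 500 bp of the 20 annotated nuclear rRNA genes. Small RNA genes of other kinds thus had ratios in the same range, and differences between these classes were not tested. Of the 339 peaks, 1 was also within 500 bp of an snRNA gene, 2 of a snoRNA gene and 1 of a microRNA gene.

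Summits were concentrated at the tRNA gene itself. In bins of 100 bp from the 5′ end, there were 15.7 pooled summits per 100 tRNA genes in the bin just upstream and 17.5 in the bin that starts at the first base of the annotated gene. In the next bin downstream there were 8.17, and in the bin from 200 to 100 bp upstream 5.39. Beyond 1 kb the mean was 2.39 and the highest single bin 3.27, so the highest bin was 7.30 times the distant mean. Each replicate list had its maximum in 1 of these 2 bins at the 5′ end, with 8.66 summits per 100 genes in replicate 1, 12.1 in replicate 2 and 17.5 in replicate 3. These maxima were 5.05, 3.87 and 5.62 times the distant mean of the same list. Around snRNA and snoRNA genes the highest bin was the one just upstream, with 12.4 and 17.6 summits per 100 genes.

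**Figure D1:**
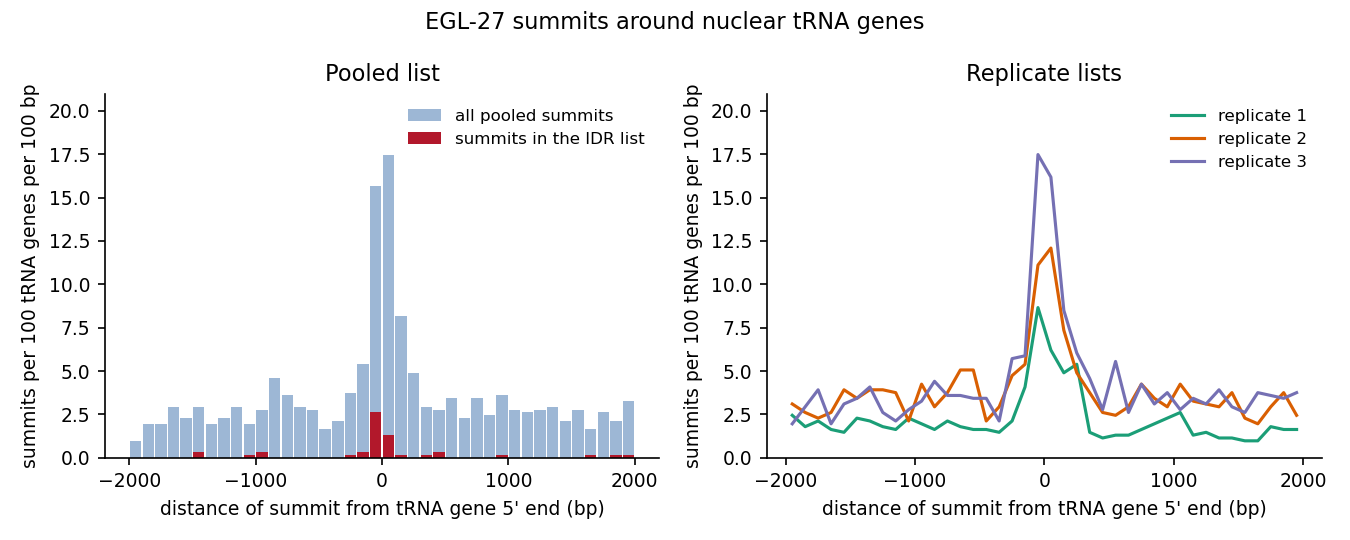
Summits per 100 nuclear tRNA genes in bins of 100 bp, against distance from the tRNA 5′ end on its own strand, for the pooled list (left, with summits of the IDR list in red) and for the 3 replicate lists (right). The pooled bars reach 15.7 and 17.5 in the 2 bins at the 5′ end against a mean of 2.39 beyond 1 kb, and all 3 replicate lines have their maximum in 1 of these bins.

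By position, 138 summits (40.7%) lay upstream of the nearest tRNA gene, 86 (25.4%) inside it and 115 (33.9%) downstream. The tRNA genes had a median length of 72 bp, and every one of the 339 peaks was 390 bp wide. In all, 280 peaks overlapped a tRNA gene somewhere along their length. The position split was also counted in the replicate lists, each with its own peaks. There, 42.9% ± 0.874 of tRNA-adjacent summits were upstream, 18.8% ± 2.00 inside and 38.3% ± 1.81 downstream (SD, n = 3 replicates). The inside share was 16.5% to 20.1% in the replicates, below that of the pooled list, which was called on the same replicates. Peaks whose nearest gene was unique in sequence had 27.8% of summits inside it, against 29.7% for genes with 2 to 9 identical copies and 22.7% for genes with 10 or more. The sources used here do not say how reads that match several copies were placed, and which of several identical genes a summit belongs to is uncertain.

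The height of a peak is given by the signal value of the authors' peak caller, a value that serves only for order and description inside its own list. Peaks beside tRNA genes had a median signal of 13.9 (quartiles 10.4 and 20.3, range 7.86 to 95.1), against a median of 10.7 over all nuclear peaks (quartiles 9.02 and 13.7). The median was 15.7 beside snRNA genes, 14.7 beside snoRNA genes and 11.1 beside microRNA genes. Of the peaks beside tRNA genes, 202 (59.6%) were in the upper tercile of the list by signal, 73 in the middle tercile and 64 in the lower. The top 10% of the nuclear list held 102 of them, or 4.39% of its peaks, against 1.46% of the whole nuclear list. The 100 highest peaks held 1 of them. This count is too small to show a lower share at the very top, which was not tested.

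Signal was highest close to the gene and differed between its sides. Summits within 100 bp of a tRNA gene or inside it had a median of 16.4 (228 peaks), against 11.0 for those farther away (111 peaks). Upstream summits at 51 to 100 bp had a median of 23.7 (27 peaks), the highest of the distance classes, against 12.6 for downstream summits at the same distance (18 peaks). Inside the gene the median was 15.3, upstream as a whole 14.3 and downstream 12.8. These are values of single peaks in 1 pooled list, so the differences between classes carry no replicate error and were not tested.

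**Figure D2:**
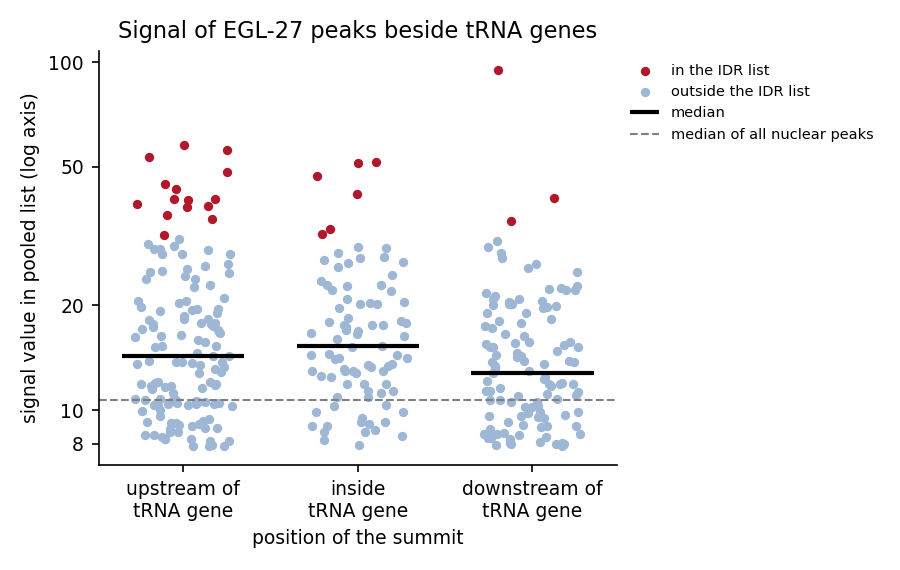
Signal value in the pooled list (log axis) of each of the 339 peaks, by position of the summit, with IDR-list peaks in red, the median of each class as a black line and the median of all nuclear peaks (10.7) dashed. The medians of all 3 classes lie above the dashed line, and the highest single value, 95.1, is a downstream summit.

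At the limit of the rule, signals on both sides lay in overlapping ranges. The 3 summits just inside it lay 499 bp from T04D3.t4 (signal 10.5), 484 bp from F09B9.t2 (17.8) and 476 bp from C35E7.t1 (15.4). Just outside were summits 503 bp from C25F6.t4 (8.75), 504 bp from Y7A5A.t4 (13.9) and 507 bp from F42A10.t2 (18.5).

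The authors also deposited a list thresholded by the irreproducible discovery rate (IDR), a measure of how well ranks repeat between replicates. It kept 24 of the peaks beside tRNA genes (7.08%), against 3.03% of all nuclear pooled peaks. The lowest of these 24 had a signal of 31.8 and the highest peak beside a tRNA gene outside the list 31.1, so the list cuts these peaks by signal. The share was 18.6% beside snRNA genes (11 peaks) and 9.90% beside snoRNA genes (20 peaks). By the deposited -log10 q-value, 65 of the peaks beside tRNA genes (19.2%) reached 2 or more, against 6.34% of all nuclear peaks.

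The 24 IDR peaks sat close to their genes, mostly at the 5′ side. Of them, 15 were upstream, at 4 to 110 bp from the gene with a median of 50 bp, 6 were inside and 3 downstream. The median summit was 20.5 bp before the 5′ end, while over all 339 peaks it was 25 bp after it. Seen by class, 10.9% of upstream peaks, 6.98% of inside peaks and 2.61% of downstream peaks were in the IDR list.

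The strongest of them, by signal in the pooled list, were at C18A11.t2 for arginine (95.1), R04A9.t1 for glutamine (57.8), M02F4.t1 for glycine (55.9) and F41D9.t3 for asparagine (53.3), all on X. In replicates 1, 2 and 3 the peak at C18A11.t2 had signals of 21.3, 42.1 and 41.3. The peak at R04A9.t1 had 8.49, 18.6 and 33.9 in that order of replicates. M02F4.t1 had 7.50 in replicate 1, 29.0 in replicate 2 and 18.7 in replicate 3. F41D9.t3 had 15.6, 15.01 and 35.1. The 4 peaks were thus present in every list, and values cannot be compared in size between lists that were called separately.

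C04A2.t1 for leucine on chromosome II followed with 51.7, and its summit lay 5334 bp from egl-27. Its signals were 7.04 in replicate 1, 7.95 in replicate 2 and 35.4 in replicate 3. The transgene carries egl-27, and the sources used here do not say how much flanking sequence it holds, so extra copies of this tRNA gene in the strain cannot be told apart from binding at the locus. Without the 2 peaks at C04A2.t1, 23 peaks beside tRNA genes were in the IDR list. C37A2.t1 for cysteine had 51.4, inside the tRNA gene and in an intron of the cyclin E gene cye-1, with 14.1, 16.0 and 21.5 in replicates 1, 2 and 3. C28G1.t1 for glutamate had 48.3, with 13.7, 14.3 and 16.9. Its summit also lay in an exon of the protein-coding gene C28G1.2, 23 bp from an annotated transcript start.

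Next by signal were R04D3.t2 for valine (46.9), whose summit lay inside the gene, and T21B4.t1 for isoleucine (44.6), in an intron of the collagen gene col-85. C02B4.t2 for tyrosine (43.2) lay in an intron of the nuclear hormone receptor gene nhr-17. T14F9.t1 for aspartate had 41.9, and F15B9.t1 for alanine, the only one of the 24 on chromosome V, had 40.6 in an intron of the formin gene inft-2. C16B8.t2 for proline and K02A4.t1 for serine both had 40.3. Up to this point in the order, no amino acid occurred more than once.

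The remaining IDR peaks had pooled signals of 40.2 or less. They included 4 more at leucine genes, W02H3.t1 (40.2), ZK678.t1 (38.3), C14B9.t2 (33.1) and C40H5.t1 (32.1). A further alanine gene was F15G9.t1 (36.3), in an intron of the hemicentin gene him-4, and a further arginine gene was F09B9.t2 (34.9), in an intron of unc-115, which encodes an actin-binding LIM protein. The others were at W09G10.t3 for threonine (39.0), C33G3.t2 for lysine (38.5), C53C7.t1 for serine (35.4) and F52C9.t1 for threonine (31.8).

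Support in the replicates was read from their own relaxed lists, which keep background peaks as input for the IDR procedure. A pooled peak was counted as found when its summit lay inside a peak of the replicate. The first replicate list held 128 of the 339 peaks (37.8%), against 26% of all nuclear peaks. The second held 218 (64.3%), against 58.3% of all nuclear peaks, and the third 262 (77.3%), against 54.9%. All 3 replicates held 69 (20.4%) against 8.63%, and 12 (3.54%) were in no replicate, against 9.34%. Replicate 3, the only one whose label names sonication with a microtip, had the largest gap in percentage points. The shares over all nuclear peaks differ between the lists, so this order depends on the scale, and by ratio replicate 3 was not the highest. The part of fragmentation in this was not tested.

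The count in all 3 replicates depended on how support was defined and on the replicates used, of which replicate 1 had a list of 15286 peaks and the others of 30000 each. It was 33 when a replicate summit had to lie within 100 bp of the pooled summit and 107 when any overlap of the peaks sufficed. Without replicate 1, both other replicates held 158 of the peaks, without replicate 2 the count was 106, and without replicate 3 it was 86. Replicates 2 and 3 alone held 89 of the peaks (26.25%), against 18.28% of all nuclear peaks. Replicates 1 and 3 alone held 37 (10.91%, against 6.87%), and replicates 1 and 2 alone 17 (5.015%, against 6.112%). The counts of 33, 107, 158, 106 and 86 are given without the same counts over all nuclear peaks, so they are not read as a result about these peaks. Signal moved with support: in the upper tercile of the list 32.2% of peaks beside tRNA genes were in all 3 replicates, against 23.4% of all peaks of that tercile. The shares were 1.37% beside tRNA genes and 1.86% over all peaks in the middle tercile, and 4.69% (3 peaks) beside tRNA genes and 0.594% over all peaks in the lower one.

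**Figure D3:**
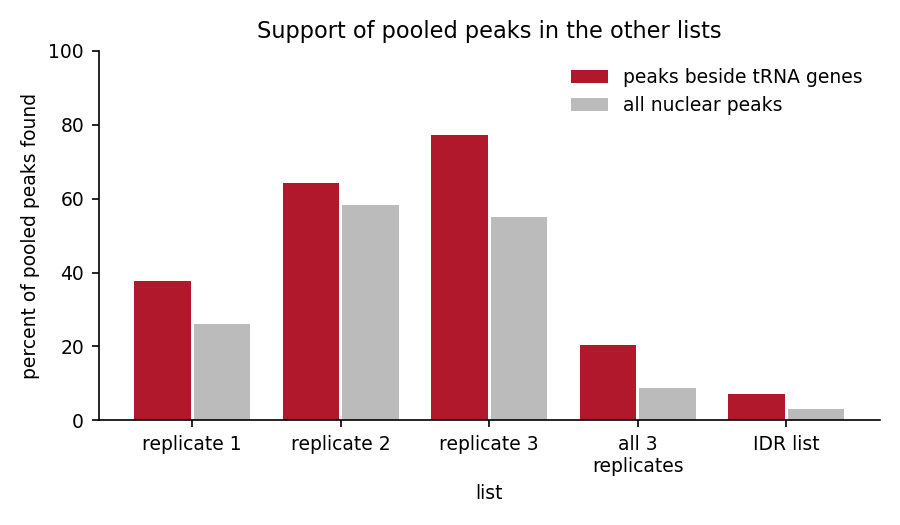
Percent of the 339 peaks beside tRNA genes (red) and of all 23217 nuclear peaks (grey) whose summit was found in each replicate list, in all 3 of them and in the IDR list. The red bar is the higher one in each pair, with 20.4% against 8.63% in all 3 replicates and 7.08% against 3.03% in the IDR list.

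Of the 24 IDR peaks, 21 were found in replicate 1, 24 in replicate 2 and 24 in replicate 3. The 3 that replicate 1 lacked were at W02H3.t1, C33G3.t2 and F15G9.t1. All 3 replicates held 87.5% of them, against 84.0% of all nuclear IDR peaks. Where found, their median signal was 7.09 in replicate 1, 14.7 in replicate 2 and 20.3 in replicate 3, while the medians of the whole lists were 3.09, 5.79 and 4.82.

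**Figure D4:**
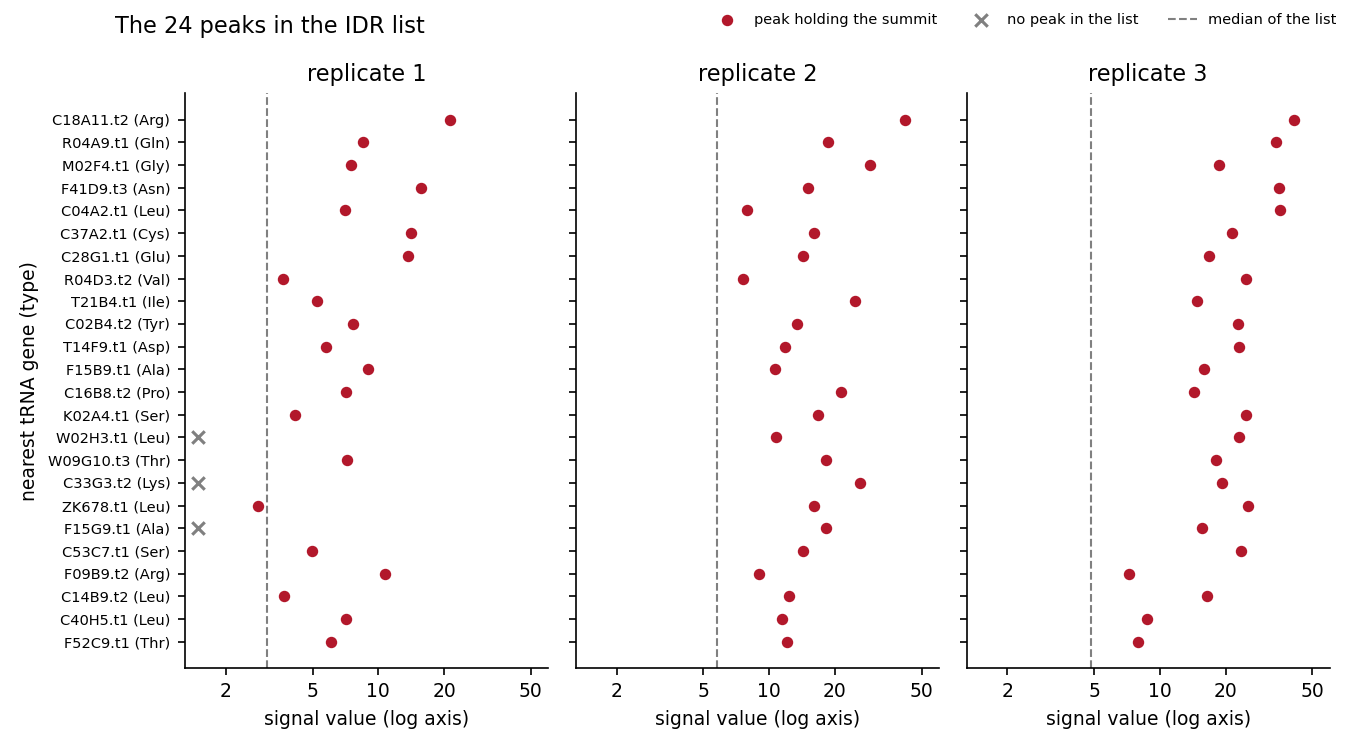
Signal value (log axis) of the replicate peak that holds the summit, for each of the 24 IDR peaks beside tRNA genes, ordered by pooled signal, in replicates 1, 2 and 3; crosses mark 3 summits with no peak in replicate 1 and dashed lines the median of each list. All points except ZK678.t1 in replicate 1 (2.81) lie to the right of the dashed line of their list.

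Each replicate list was then read on its own, without the pooled peaks. It held 194 tRNA-adjacent peaks in replicate 1 (1.27% of the list), 303 in replicate 2 (1.01%) and 403 in replicate 3 (1.34%). Each list was also cut to its highest-signal nuclear peaks, as many as the IDR list holds. Among these there were 13 (1.84%), 20 (2.84%) and 24 (3.40%). The share in these top peaks was higher than in the whole list by 1.49 percentage points ± 0.799 (SD, n = 3 replicates) and was higher in 3 of 3. In an exact two-sided sign-flip permutation test this gave p = 0.25, the smallest value that 3 replicates allow, so the design cannot reach 0.05. The replicate lists marked 201, 304 and 378 of the 612 tRNA genes (32.8%, 49.7% and 61.8%).

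In the pooled list, 349 of the 612 tRNA genes (57.0%) had a summit within 500 bp, and 31 (5.07%) had an IDR summit. Genes less than 1 kb apart can share a summit, so loci were counted as well: 273 of 476 loci (57.4%) had one. A summit had a single tRNA gene in its window in 235 cases and several in 104. Conversely, 61 tRNA genes had more than 1 summit. The most was 3, at the methionine gene F22F1.t6 on X, with signals of 20.6, 10.9 and 9.85.

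By tRNA type, taken from RefSeq for 607 of the 612 genes, the share with a summit ranged widely but on few genes each. The single selenocysteine gene, K11H12.t1, which serves the insertion of selenocysteine at UGA codons, had a summit 78 bp upstream (29.0) and another 54 bp downstream (12.9). The upstream summit was found in all 3 replicates, with signals of 5.61, 4.17 and 16.2, and the downstream one lay in the same replicate 1 and 2 peaks. Cysteine genes followed with 10 of 13 (76.9%), glutamate with 29 of 41 (70.7%), glutamine with 19 of 27 (70.4%) and leucine with 26 of 39 (66.7%). At the low end were proline with 20 of 42 (47.6%), tyrosine with 9 of 19 (47.4%), serine with 16 of 39 (41.0%) and histidine with 6 of 20 (30%). IDR summits were found at 5 leucine and 4 alanine genes. Of the alanine genes, F15G9.t1 and F15G9.t2 shared 1 summit, and the summit at K02A4.t2 was nearest to the serine gene K02A4.t1. No IDR summit was found at the selenocysteine, tryptophan, methionine, phenylalanine or histidine genes. With 12 to 20 genes in the last 4 of these types, an IDR share near the 5.07% of all genes would give about 1 gene, so this absence was not detectable as a difference.

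**Figure D5:**
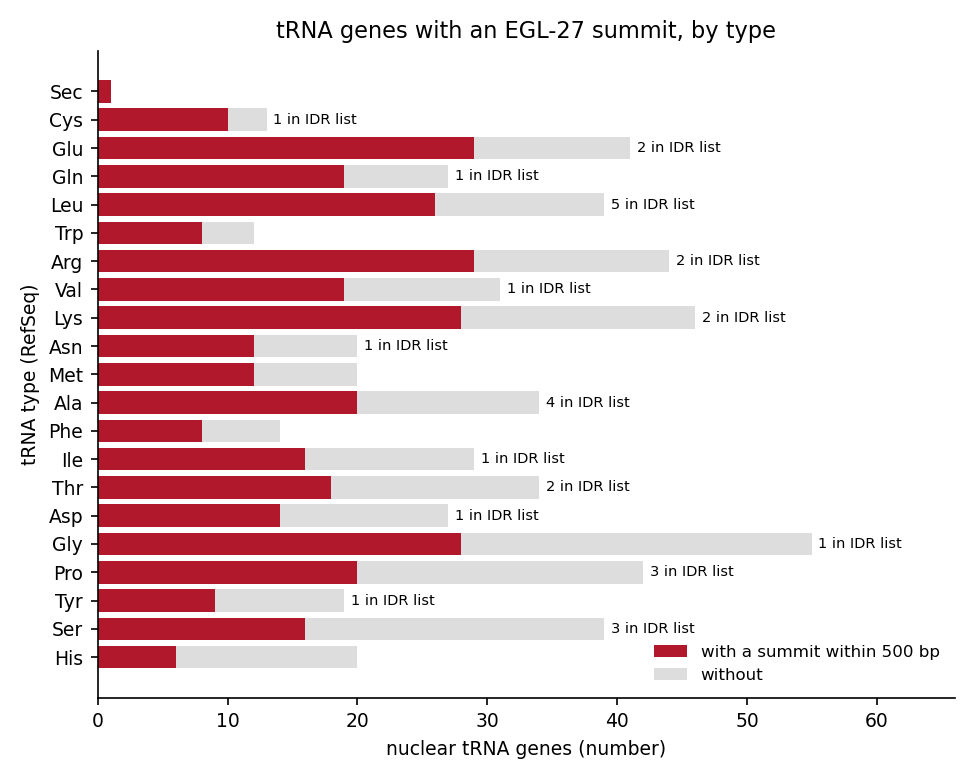
Number of nuclear tRNA genes of each RefSeq type with an EGL-27 summit within 500 bp (red) and without one (grey). The share with a summit runs from 30% for histidine to 76.9% for cysteine among types with several genes.

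The share of tRNA genes with a summit was also read by the number of identical copies, and its differences were not tested. Of 317 genes with 10 or more identical copies, 64.4% had one, against 55.9% of 152 genes with 2 to 9 copies and 42.0% of 143 unique genes. In the same order of classes the shares were 68.2%, 61.5% and 38.6% on the X chromosome, and 60.7%, 51.7% and 44.2% on autosomes. Close to the gene the classes with copies were level: a summit within 100 bp was found at 39.4% of genes with 10 or more copies, 39.5% of those with 2 to 9 and 25.9% of unique ones. IDR summits were at 5.05%, 5.92% and 4.20% of the same classes. In all, 469 genes (76.6%) had an identical copy, the most being 29, and 200 distinct sequences made up the 612 genes. Copy number moves together with how reads can be placed, and the part of read placement in these shares was not tested.

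The X chromosome carried 276 of the 612 tRNA genes (45.1%), and 147 of the 339 peaks (43.4%) lay on it, against 18.95% of all nuclear peaks. The number of peaks on X thus went with the number of tRNA genes there: 60.5% of tRNA genes on X had a summit, against 54.2% on autosomes. Across the autosomes the share ran from 43.9% on chromosome I and 47.9% on chromosome IV to 63.2% on chromosome II and 67.2% on chromosome III, with 51.3% on chromosome V. In the replicate lists, 43.5% ± 1.99 of tRNA-adjacent peaks were on X (SD, n = 3 replicates). The median signal was 14.4 on X and 13.7 on autosomes.

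Among the strongest peaks the X chromosome had a larger share. Of the 24 IDR peaks beside tRNA genes, 17 were on X (70.8%), against 24.01% of all nuclear IDR peaks. On X, 11.6% of the peaks beside tRNA genes were in the IDR list, against 3.65% on autosomes, while among all nuclear peaks these shares were 3.84% and 2.84%. The highest peaks of each replicate were read in equally long lists. In replicate 1, 7 of 13 tRNA-adjacent peaks (53.85%) were on X. The counts were 13 of 20 (65%) in replicate 2 and 18 of 24 (75%) in replicate 3. Of all peaks in these lists, 23.55%, 22.41% and 25.53% were on X, while 45.1% of tRNA genes lay there. Chromosome IV, with 39 peaks beside tRNA genes, had none in the IDR list. These counts are small, and the difference between X and autosomes was not tested.

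Around the genes, 120 of the 339 summits (35.4%) lay in an intron of a protein-coding gene, 52 (15.3%) in an exon of one, 36 in another annotated gene and 131 (38.6%) in no other gene. Of the IDR peaks, 11 were in introns, 1 in an exon, 1 in another gene and 11 in none. These classes were not counted over all nuclear peaks, so whether the shares differ from those of other peaks is not known. The promoter window of a protein-coding gene, set from 1000 bp before to 500 bp after an annotated transcript start, held 97 of the summits (28.6%), against 38.7% of all nuclear summits. Inside such windows the median signal was 14.1 with 5 IDR peaks, and outside them 13.8 with 19. The 5 were at R04A9.t1, C28G1.t1, T21B4.t1, W09G10.t3 and ZK678.t1. For these, the tRNA gene and the coding promoter cannot be told apart as the place a peak belongs to. Among tRNA genes, 56.2% of those inside a protein-coding gene had a summit, against 57.8% of the others.

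The letters of the internal promoter were counted in tRNA genes with and without a summit. The B box core GTTCGANNC occurred in 441 genes (72.1%) and the A box core TGGCNNAGT in 61 (9.97%), and TTTT occurred within 50 bp after the gene in 605 (98.9%). The looser forms TGGNNNA, searched in the first 25 bases, and GTTCNANNC were chosen after these counts were seen, and both occurred together in 74.4% of genes. Of the 441 genes with the B box core, 56.5% had a summit, against 58.5% of the 171 without it. The A box core gave 60.7% with it and 56.6% without it. For the looser forms, 59.8% of the 455 genes with both had a summit, against 49.0% of the other 157. IDR summits were at 9.84% of genes with the A box core (6 of 61) and 4.54% without it (25 of 551). For the B box core these shares were 4.76% and 5.85%. The 6 genes with the A box core were the 5 leucine genes with an IDR summit and W09G10.t3 for threonine. The A box core and the tRNA type thus cannot be told apart there. None of these differences was tested. Within 50 bp of the summit, on either strand, the B box core was present at 22.4% of the 339 peaks, against 1.10% of all nuclear summits, and at 64.0% of those inside a tRNA gene. Because the rule placed the summits beside tRNA genes, that excess follows from position.

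The motifs GAGAGA and CTGCGTCTC, known beforehand to be frequent at IDR peaks of these data, were counted in the same windows, on both strands. GAGAGA was within 50 bp of the summit at 46 of the 339 peaks (13.6%), against 11.0% of all nuclear summits. Among IDR peaks it was at 6 of the 24 beside tRNA genes (25%, exact 95% interval 9.77 to 46.7), against 41.3% of all nuclear IDR summits (37.7 to 45.1). CTGCGTCTC was at 2 of the 339 (0.59%), against 1.91% of all nuclear summits. It was at 0 of the 24 IDR peaks, which allows a share of up to 12.5% by 3 counts of the total and up to 14.25% by the exact interval, against 15.2% of all nuclear IDR summits (12.6 to 18.1). The exact intervals overlap. These intervals cover counting error only. GC content in the same windows averaged 43.3% ± 9.13 at the peaks beside tRNA genes and 38.1% ± 8.77 at all nuclear summits (SD over windows), while at IDR peaks the means were 48.8% and 48.2%.

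GAGAGA was also counted upstream of the tRNA gene. Because it was known beforehand to be frequent at IDR peaks of these data, these counts are a description and no independent evidence. GAGAGA occurred on either strand in the 100 bases before 109 of the 612 tRNA genes (17.8%). In a stretch of the same length it occurred before 8.77% of protein-coding genes, 7.75% of snRNA genes and 9.54% of snoRNA genes. Of the 109 tRNA genes with it, 80 (73.4%) had a summit within 500 bp and 13 an IDR summit. Of the 503 without it, 269 (53.5%) had a summit and 18 an IDR summit. The shares were 77.4% with and 56.5% without GAGAGA on X, and 69.6% with and 51.1% without it on autosomes. CTGCGTCTC occurred before 8 tRNA genes, of which 5 had a summit. A match is a description of letters and not a site, and GC content and copy number were not held fixed in this count, whose difference was not tested.

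Other genes of tRNA biology were read at their own promoters, in the windows of protein-coding genes given above. Of 32 aminoacyl-tRNA synthetase genes, whose products charge tRNAs with amino acids, 19 (59.4%) had a pooled summit, against 39.2% of all protein-coding genes. The highest were at nars-1 (27.2), ears-2 (22.6), kars-1 (22.4) and aars-1 (22.3), named for asparagine, glutamate, lysine and alanine. None of the 32 had an IDR summit, which allows a share of up to 9.38%, against 2.22% of all protein-coding genes, so a difference was not detectable. Of 9 genes for RNA polymerase III transcription found in the annotation, 3 (33.3%) had a pooled summit. They were rpac-19 (19.01), a subunit shared with RNA polymerase I, mafr-1 (18.3), a repressor of RNA polymerase III, and rpc-1 (15.4), its large subunit. Of 11 genes for tRNA modification and splicing, 5 (45.5%) had one, among them the Elongator subunit gene elpc-4 (16.2) and the methyltransferase gene nsun-2 (15.1). The shares of these last lists lie on either side of the 39.2% of all protein-coding genes, on few genes, and were not tested. Neither list had an IDR summit, which allows shares of up to 33.3% and 27.3%.

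These counts rest on a relaxed list. When only pooled peaks with a -log10 q-value of 2 or more were kept, 65 peaks beside 77 tRNA genes were left. They had a median signal of 29.0, with 50.8% of them on X and 42 of them in all 3 replicates. The count of 42 was not taken over all nuclear peaks.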

How the data were processed

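The series holds ChIP-seq peak lists from 3 biological replicates of 1 group of whole L1 larvae. Per the file headers and labels, the authors called peaks per replicate and on the pooled replicates, in relaxed lists kept as input for IDR, and gave an IDR-thresholded list. Aligner, peak caller, IDR threshold and read depth are not given in the sources used here. Without depth, the error of 1 peak value is not known. Peak height is the signal value of the deposited lists, whose normalization is not stated. Peak significance is the -log10 q-value of the deposited lists, used only for a threshold of 2. A control alignment named in the deposited library notes was not used here, nor were the ce10 lists.

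The ce11 lists were joined to Ensembl release 115 genes with Python 3.11.15, pandas 2.3.3, numpy 2.4.6 and scipy 1.17.1, with coordinates 1-based. A peak was assigned to the nearest tRNA gene within 500 bp of its summit. Transfer RNA types and sequences came from RefSeq. A pooled peak was in the IDR list when the same summit was listed there. For shares, the interval is the exact 95% binomial interval, and the limit for a count of 0 is 3 counts of the total. The single test was an exact sign-flip permutation test over the replicates. Joins and counts were tested on simulated data.

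Members and lists were chosen with earlier results of these data known, including the motifs GAGAGA and CTGCGTCTC. Peaks named were the 24 in the IDR list, the 3 on each side of the 500 bp limit and, of the 61 tRNA genes with several summits, the 1 with 3 summits; K11H12.t1 was named after its values were seen. Pathway genes named were also chosen after their values were seen. Alternatives were other windows, a q-value threshold, other definitions of support, removal of promoter peaks or of peaks near egl-27, and leaving out each replicate.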

Additional observations from a re-analysis of the deposited data

How the results depend on the processing

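Of 42 alternative values of 8 results, 31 stayed within range of the reported value, 11 moved and 0 reversed. The range was 1.5-fold for counts, the exact 95% interval for shares and for the median (13.2 to 15.2), and the same sign for the top-peak difference. Within it, any overlap with an IDR peak gave 35 peaks in place of 24. With summits up to 1000 bp away, the median signal was 12.8. With a -log10 q-value of at least 2, 65 peaks, 77 tRNA genes and 42 peaks in all 3 replicates were left. Their median signal was 29.0, with 50.8% on X and 30.8% inside a tRNA gene. Peaks in all 3 replicates numbered 33 with a replicate summit within 100 bp and 107 with any overlap. Leaving out each replicate in turn gave 86 to 158 peaks in both other replicates. It gave a difference of 1.20 to 1.94 percentage points for the top peaks, where 2 replicates allow no exact p under 0.5. Removal of peaks within 50 kb of egl-27, chosen after seeing the data, left 337 peaks and 23 in the IDR list. Fewer replicates, a stricter threshold and a narrower definition each change these counts by construction. No paired analysis was possible because all samples form 1 group. Read depth is unknown, and it limits how far a missing replicate peak can be read.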
